A study of Mus musculus with 12 samples.

Results

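The creatine kinase system of differentiating mouse muscle cells was described through 7 genes: the cytosolic kinases Ckm and Ckb, the mitochondrial kinases Ckmt1 and Ckmt2, the synthesis enzymes Gatm and Gamt, and the creatine transporter Slc6a8. The genes were chosen by symbol and are 7 of the 16288 genes listed in at least 1 library. C2C12, an immortalized mouse myoblast line that fuses into myotubes when serum is lowered, was profiled by RNA-seq in 12 libraries, 6 groups of 2 biological duplicates labelled A and B. Cells were harvested while proliferating in growth medium (GM), or after 24 or 48 hours in differentiation medium (groups labelled DM 24h and DM 48h, here 24h and 48h). At each stage they had received the solvent DMSO or PFI-3 at 50 µM, a compound that binds the bromodomains of BRM, BRG1 and PB1, subunits of SWI/SNF chromatin remodelling complexes. Every group, controls included, was pretreated with its agent for 12 hours, and the agent was renewed each day in the differentiation medium, which held horse serum and insulin. All libraries come from the same cell line, so no other genotype or muscle was sampled.

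Creatine kinases move a phosphate between ATP and creatine, and the phosphocreatine store so built refills ATP when a muscle fibre contracts. Creatine itself is made in steps: Gatm moves the amidino group of arginine onto glycine to give guanidinoacetate, and Gamt methylates that product with S-adenosylmethionine. Slc6a8 takes up ready-made creatine from outside the cell with sodium and chloride. Skeletal muscle is known for a switch from the brain-type kinase Ckb in myoblasts towards the muscle-type kinase Ckm in fibres, where part of Ckm is held at the M-band beside myosin, and Ckmt2 sits at the inner mitochondrial membrane.

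The sequence before the start site is shown for the 3 kinases whose transcripts rose during differentiation, because factors of myogenesis act through short elements there. The stretches come from RefSeq annotation of build GRCm38.p6. They leave out bases inside the gene's annotated span or inside an untranslated region annotated by GENCODE. They lie at chr7:19410844-19411024 on the plus strand for Ckm, at chr12:111672339-111672588 on the minus strand for Ckb, and at chr13:91876924-91877135 on the minus strand for Ckmt2. Capitals mark matches to the E-box CANNTG, which MyoD family factors bind, and to the MEF2 site.
Ckm: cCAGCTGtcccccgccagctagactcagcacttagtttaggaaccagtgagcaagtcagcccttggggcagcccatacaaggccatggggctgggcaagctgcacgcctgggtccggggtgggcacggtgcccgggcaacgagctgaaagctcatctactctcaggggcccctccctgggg
Ckb: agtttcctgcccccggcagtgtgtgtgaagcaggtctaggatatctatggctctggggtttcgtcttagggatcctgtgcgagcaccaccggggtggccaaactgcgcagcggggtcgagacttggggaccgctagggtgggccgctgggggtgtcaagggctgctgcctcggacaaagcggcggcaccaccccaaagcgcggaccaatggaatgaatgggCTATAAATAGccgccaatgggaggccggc
Ckmt2: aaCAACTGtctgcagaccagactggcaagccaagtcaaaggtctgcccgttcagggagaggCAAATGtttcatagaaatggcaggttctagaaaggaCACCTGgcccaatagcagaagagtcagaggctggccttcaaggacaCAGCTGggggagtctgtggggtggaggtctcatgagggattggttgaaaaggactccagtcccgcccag
Positions are counted back from the start site of the promoter table, which for Ckmt2 lies 38 bases inside the end of the gene's annotated span. In the 250 bases before that start, Ckm had 1 E-box, CAGCTG, at 249 to 244 bases upstream, and Ckmt2 had 4, which were CAACTG at 248 to 243, CAAATG at 189 to 184, CACCTG at 153 to 148 and CAGCTG at 107 to 102 bases upstream. Ckb had no E-box but 1 MEF2 site, CTATAAATAG, at 29 to 20 bases upstream, which overlaps the letters TATAAA. Ckm had the letters TATATAA at 31 to 25 bases upstream, among the bases left out of its printed stretch. Both strands were searched. Of 32851 windows of the same length 66.2% held an E-box, 13% the letters CAGCTG, 2.92% a MEF2 site, 12.4% TATAAA and 3.04% TATATAA. The Gamt window held none of these motifs, and the Gatm window held 1 E-box, CACCTG. These are matches of letters, not measured binding.

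Library totals were 12576374 to 13658352 expected counts, with 13499 to 14231 genes listed. Of all genes, 12545 passed the filter on low counts and were tested. The 12 muscle markers fixed for the cells were all listed, and of 5 adipocyte, 4 endothelial, 4 kidney or liver, 5 leukocyte and 5 neuron or glia markers no list summed to more than 9.05 CPM in any library. Osteoblast or chondrocyte markers, of which 4 of 6 were listed (Ibsp and Acan were not, and nearly all counts were of Dmp1), summed to 14.3 to 17.8 CPM in DMSO and 4.03 to 5.42 CPM in PFI-3 libraries at 24h, and to 15.1 to 15.3 and 8.43 to 9.40 CPM at 48h. The muscle markers summed to 6988 to 6991 CPM in DMSO and 5497 to 5526 CPM in PFI-3 libraries at 24h, and to 16840 to 16960 and 12780 to 12850 CPM at 48h. Vim alone held 2861 and 2851 CPM in DMSO and 3050 and 3049 CPM in PFI-3 libraries at 24h. Of the 12 muscle markers, 8 were called lower with PFI-3 at 24h and 7 at 48h, among them Myog, Mef2c and Acta1. Of all tested genes, 11.4% and 14% were called lower at these stages. In GM 4 markers were called lower (Des, Vim, Cdh15 and Itga7) and 1 higher (Tnni1, at 0.36 CPM in both PFI-3 libraries). There 6.15% and 5.46% of all tested genes were called lower and higher. The part of these markers in the creatine gene differences was not tested. In bulk RNA, fewer differentiated cells and less RNA per cell cannot be told apart.

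The cytosolic kinases and both synthesis enzymes were lower with PFI-3 at 24h and 48h, whereas the transporter Slc6a8 was higher at 24h. At 48h the Ckm level was 52.8% and the Ckb level 35.3% of that in DMSO. Calls rest on an adjusted p under 0.05 in edgeR's quasi-likelihood test, and log2 fold changes are given with their standard error (SE) from that fit. P-values rest on the spread between duplicates pooled over all 6 groups, not on the groups compared alone. Duplicates differed more in GM than later. The SD over genes of the log2 difference between libraries B and A was 0.312 (DMSO) and 0.281 (PFI-3) in GM. It was 0.133 and 0.134 at 24h, and 0.14 and 0.131 at 48h. Of the 7 genes, 6 were tested, and Ckm and Ckmt2 passed the filter through differentiated libraries alone, so the counts that follow are a description. With PFI-3, 1 gene was called lower in GM and none higher, where 6.15% and 5.46% of all tested genes were. At 24h 4 were called lower and 1 higher, where 11.4% and 12.2% of all tested genes were. At 48h 4 were called lower and none higher, where 14% and 13.4% of all tested genes were. The median log2 fold change over the 6 tested genes was 0.06 in GM, -0.52 at 24h and -0.88 at 48h, against -0.01, 0.00 and 0.00 over all tested genes. The medians of GM and 24h include fitted values of Ckm or Ckmt2 at 5 counts or fewer, which are not measured sizes.

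**Figure D1:**
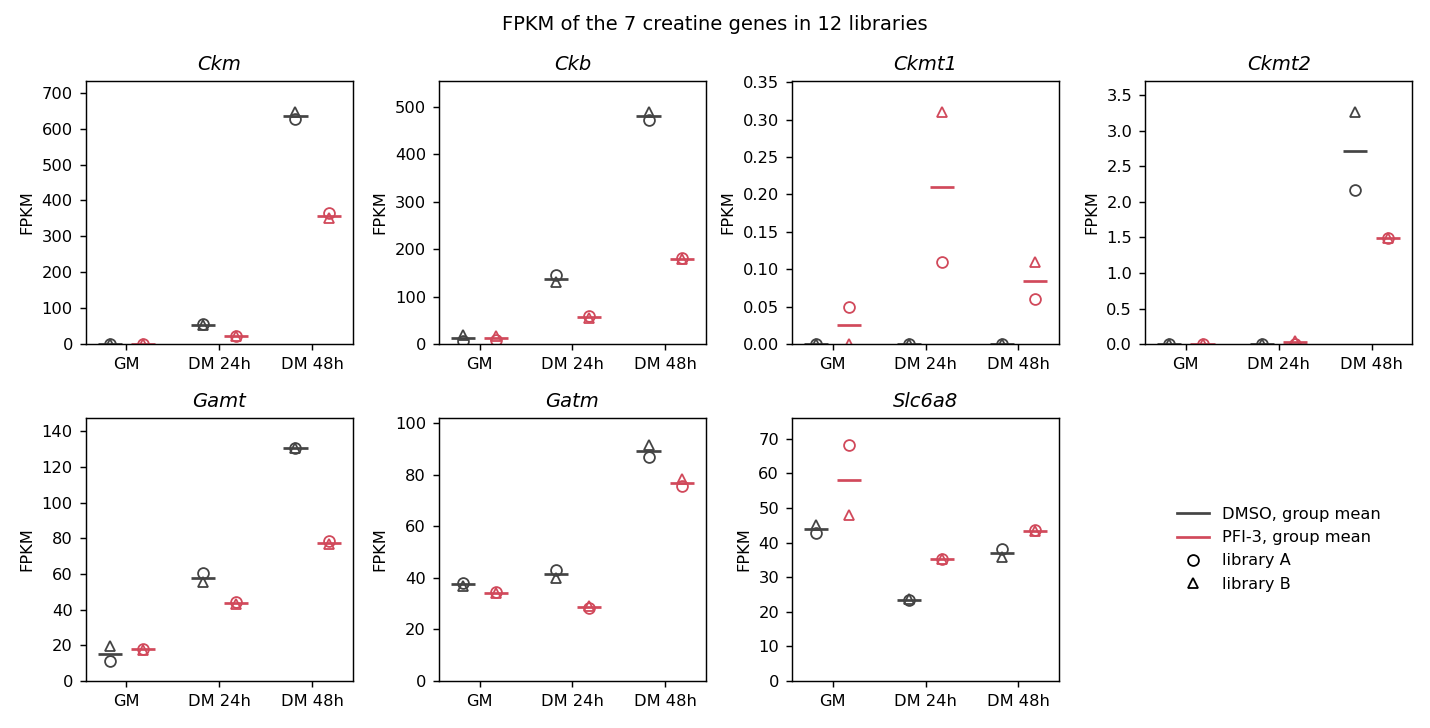
FPKM (fragments per kilobase of transcript, scaled to library size) of each of the 7 genes against stage, with DMSO in grey and PFI-3 in red, circles for library A, triangles for library B and a bar at the group mean of 2. Each panel has its own linear axis from 0. At DM 48h the PFI-3 libraries of Ckm, Ckb, Ckmt2, Gamt and Gatm lie below both DMSO libraries. Those of Slc6a8 and of Ckmt1, which is near the floor, lie above them. The Ckmt2 and Slc6a8 differences there were not called.

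Ckm, the muscle-type kinase (gene 12715, chr7:19411094-19421583, plus strand), had 1 and 1 expected counts in the GM DMSO libraries A and B and 0 and 5 in GM PFI-3. At 24h it had 941 and 927 with DMSO and 379 and 367 with PFI-3. At 48h it had 10744 and 11062 with DMSO and 6118 and 5898 with PFI-3. The DMSO and PFI-3 libraries overlap in GM, where Ckm was at the detection floor, and do not overlap at either differentiated stage. Both 48h PFI-3 libraries stood far above both 24h DMSO libraries. On the per-length scale the level was 55.9 and 53.4 FPKM at 24h with DMSO, and 22.3 and 21.6 with PFI-3. At 48h it was 626 and 646 FPKM with DMSO, which ranked Ckm 102 and 100 among all genes of those libraries, and 364 and 350 FPKM with PFI-3, ranks 175 and 189.

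PFI-3 lowered Ckm by 2.57-fold at 24h (log2 fold change -1.36, SE 0.11, adjusted p = 6.4e-06 in edgeR) and by 1.89-fold at 48h (-0.92, SE 0.10, adjusted p = 2.71e-05). Neither passed in limma when 0.1 was added to FPKM before the log2 (adjusted p 0.0549 and 0.178). The PFI-3 difference at 48h was 0.44 log2 units less negative than at 24h (SE 0.15), and that difference between stages was not called (edgeR adjusted p = 0.0706). It was called in 7 of the 21 other settings, with adjusted p from 2.59e-06 to 0.0225. In DMSO, Ckm rose 12.2-fold from 24h to 48h (edgeR adjusted p = 2.25e-10). Against GM DMSO, where the libraries held 2 counts together, the ratio was 962 at 24h (95% counting interval 266 to 7950) and 11700 at 48h (3237 to 96580). With PFI-3 the same ratios over 5 counts were 158 (67.4 to 488) and 2611 (1118 to 8042). The rise of Ckm over GM thus spanned orders of magnitude with either agent, and the intervals, which cover counting error only, are wide because GM held almost no reads.

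Ckb, the brain-type cytosolic kinase (gene 12709, chr12:111669355-111672338, minus strand), was present before induction. It had 136 and 356 expected counts in GM DMSO and 182 and 335 in GM PFI-3. At 24h it had 2570 and 2382 with DMSO and 1042 and 983 with PFI-3. At 48h it had 8508 and 8781 with DMSO and 3206 and 3157 with PFI-3. In GM the agents overlap and library B was the higher for each, while at both differentiated stages every PFI-3 library was below every DMSO library of its stage. In FPKM, Ckb went from 7.13 and 18.6 in GM DMSO to 146 and 131 at 24h and 473 and 490 at 48h. With PFI-3 it went from 9.79 and 17.5 to 58.6 and 55.3 and then 182 and 179.

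Against DMSO, Ckb was 2.52-fold lower with PFI-3 at 24h (log2 fold change -1.33, SE 0.26, edgeR adjusted p = 0.00308) and 2.83-fold lower at 48h (-1.503, SE 0.25, adjusted p = 0.000754). In GM the log2 fold change was 0.00 (95% interval -0.68 to 0.68). It was -0.50 without GM DMSO library A, -0.49 without GM PFI-3 library B and 0.36 without GM PFI-3 library A, none of them called. Without GM DMSO library B it was 0.80 and passed the test. Each of these fits leaves the letters unmatched between the agents, and library B was the higher for both in GM. Their values thus mix the difference between letters with that between agents. In DMSO, Ckb rose 10.4-fold from GM to 24h (edgeR adjusted p = 1.11e-06) and another 3.63-fold to 48h (adjusted p = 6.46e-05). The rise to 24h was 7.37-fold without GM DMSO library A and 18.2-fold without GM DMSO library B. The brain-type transcript thus rose beside the muscle type over this period. Markers of neurons or glia, cells that also express Ckb, summed to at most 1.38 CPM in any library, with Snap25 and Olig2 not listed.

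The balance of the cytosolic pair moved with stage. Ckm made up 0.696% and 0.269% of the FPKM summed over the 4 kinases in GM DMSO, 27.7% and 29.0% at 24h and 56.8% and 56.7% at 48h. With PFI-3 the share was 0% and 1.52% in GM, 27.5% and 28.0% at 24h and 66.5% and 66.0% at 48h. The agents overlap at 24h and not at 48h, where Ckm held the larger share with PFI-3. The Ckm to Ckb ratio in FPKM was 0.40 ± 0.02 (SD, n = 2) in DMSO and 0.39 ± 0.01 in PFI-3 libraries at 24h, and 1.32 ± 0.002 against 1.98 ± 0.03 at 48h. With 2 libraries against 2 an exact two-sided permutation test cannot go below p = 0.333, and the ratio was given no other test. The summed kinase level was 193 ± 12.2 FPKM with DMSO and 79.1 ± 2.60 with PFI-3 at 24h, and 1120 ± 26.9 against 539 ± 12.2 at 48h (SD, n = 2 each). The PFI-3 sum was 41.0% of the DMSO sum at 24h and 48.2% at 48h. These FPKM values were not rescaled between libraries. On log2(FPKM + 1) the median PFI-3 difference over all tested genes was 0.036 at 24h and 0.071 at 48h, against -0.001 and 0.001 in edgeR. The isoform shares of the agents overlapped at the first of these stages and lay further towards Ckm with PFI-3 at the second.

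**Figure D2:**
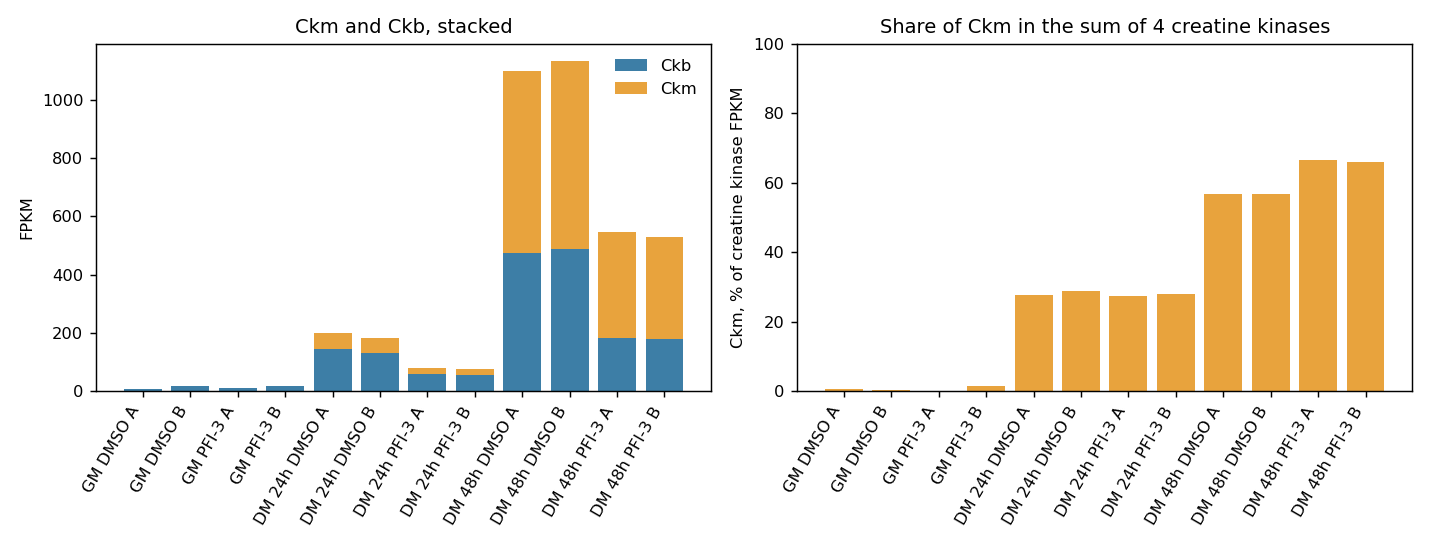
Left, FPKM of Ckb (blue) and Ckm (orange) stacked for each of the 12 libraries; right, Ckm as a percentage of the FPKM summed over Ckm, Ckb, Ckmt1 and Ckmt2 in the same libraries. The stacked bars are lower with PFI-3 at both differentiated stages, while the share is 27.5% to 29.0% in all 4 DM 24h libraries and 56.7% to 66.5% in the DM 48h libraries.

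The mitochondrial kinases were scarce. Ckmt2, the sarcomeric form (gene 76722, chr13:91853386-91876923, minus strand), had 40 and 60 expected counts at 48h with DMSO and 27 and 27 with PFI-3. It had 1 count in the 24h PFI-3 library B and none in the other 7 libraries. Apart from that 1 count, it was detected at the last stage, where both PFI-3 libraries were below both DMSO libraries. Its level there was at least 17.9-fold higher than in GM and at least 17.4-fold higher than at 24h in DMSO, taking a floor of 3 counts per library. With PFI-3 it was at least 9.77-fold higher than in GM. The PFI-3 difference at 48h, a log2 fold change of -0.95 (95% interval -1.73 to -0.16), was not called (edgeR adjusted p = 0.0733), and 5 of the 21 other settings called it.

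Ckmt1, the ubiquitous mitochondrial form (gene 12716, chr2:121357773-121363737, plus strand), was listed in 5 libraries, all of them PFI-3 libraries. It had 1 and 0 counts in GM, 2 and 6 at 24h and 1 and 2 at 48h with PFI-3, and was at 0 in all 6 DMSO libraries. It fell below the filter. Fitted without the filter it was not called at any stage, with edgeR adjusted p of 0.699 in GM, 0.119 at 24h and 0.357 at 48h. The unadjusted edgeR p at 24h was 0.0294. With at most 6 counts in a library, the size of a difference could not be measured.

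Gamt, which methylates guanidinoacetate to creatine (gene 14431, chr10:80258151-80261025, minus strand), had 141 and 248 expected counts in GM DMSO and 219 and 223 in GM PFI-3. At 24h it had 705 and 667 with DMSO and 520 and 508 with PFI-3. At 48h it had 1554 and 1552 with DMSO and 909 and 900 with PFI-3. The agents overlap in GM and are apart at both later stages, with the wider gap at 48h. In DMSO, Gamt rose 3.65-fold from GM to 24h (edgeR adjusted p = 7.01e-07) and 2.36-fold from there to 48h (adjusted p = 9.44e-06). PFI-3 lowered it by 1.37-fold at 24h (log2 fold change -0.46, SE 0.14, edgeR adjusted p = 0.0312) and by 1.79-fold at 48h (-0.84, SE 0.13, adjusted p = 0.000472). The 24h call was lost when any 1 of the 8 differentiated libraries was left out. It was also lost in limma on log2(FPKM + 1) (adjusted p = 0.134) and on log2(FPKM + 0.1) (0.152). In GM the log2 fold change was 0.11 (95% interval -0.25 to 0.48, edgeR adjusted p = 0.709). It was -0.20 without GM DMSO library A, and 0.53 without GM DMSO library B, when it passed the test (adjusted p = 0.00696).

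Gatm, which makes guanidinoacetate (gene 67092, chr2:122594473-122611277, minus strand), was already abundant in GM, with 1180 and 1153 expected counts with DMSO and 1046 and 1055 with PFI-3. At 24h it had 1231 and 1180 with DMSO and 819 and 836 with PFI-3. At 48h it had 2547 and 2666 with DMSO and 2167 and 2248 with PFI-3. The agents do not overlap at any stage, and the 24h PFI-3 libraries were the lowest of all 12. In DMSO the level at 24h was not called different from GM (log2 fold change 0.09, edgeR adjusted p = 0.277), and it rose 2.25-fold from 24h to 48h (adjusted p = 4.23e-08). PFI-3 lowered Gatm by 1.5-fold at 24h (-0.58, SE 0.07, edgeR adjusted p = 0.000115) and by 1.23-fold at 48h (-0.30, SE 0.07, adjusted p = 0.00506). The 48h call was lost without 48h PFI-3 library A (adjusted p = 0.0535) or 48h DMSO library B (0.0574). In GM the log2 fold change was -0.23 (edgeR adjusted p = 0.0494), a call lost in 18 of the 21 other settings, 11 of them fits without 1 library.

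The order of the synthesis enzymes changed between stages. On the FPKM scale the Gamt to Gatm ratio was 0.29 and 0.53 in GM DMSO, 1.41 and 1.39 at 24h and 1.5 and 1.43 at 48h. With PFI-3 it was 0.51 and 0.52, then 1.56 and 1.49, then 1.04 and 0.98. At 48h with PFI-3 the levels of Gamt (78.2 and 76.9 FPKM) and Gatm (75.5 and 78.3 FPKM) overlapped, while with DMSO Gamt (131 and 130 FPKM) stood above Gatm (86.9 and 91.4 FPKM). These ratios are values with no test.

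Slc6a8, the creatine transporter (gene 102857, chrX:73673133-73682502), had 2264 and 2405 expected counts in GM DMSO and 3533 and 2555 in GM PFI-3. At 24h it had 1151 and 1195 with DMSO and 1747 and 1748 with PFI-3. At 48h it had 1919 and 1785 with DMSO and 2145 and 2123 with PFI-3. Every PFI-3 library was above every DMSO library of its stage in counts, and in GM the PFI-3 library A stood high and apart from its duplicate. In DMSO, Slc6a8 fell 1.93-fold from GM to 24h (log2 fold change -0.95, SE 0.12, edgeR adjusted p = 3.07e-05) and rose 1.64-fold from there to 48h (adjusted p = 0.000417). Its 48h level was not called different from GM (-0.23, edgeR adjusted p = 0.095), but was without either GM PFI-3 library (adjusted p = 0.00264 and 0.00262).

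With PFI-3, Slc6a8 was 1.45-fold higher than with DMSO at 24h (log2 fold change 0.54, SE 0.12, edgeR adjusted p = 0.00815). That call was lost when any 1 of the 4 24h libraries was left out (adjusted p 0.0505 to 0.0631). It was not called in GM (0.31, 95% interval 0.05 to 0.56, edgeR adjusted p = 0.113) or at 48h (0.14, 95% interval -0.12 to 0.40, adjusted p = 0.409). The GM difference was 0.04 without GM PFI-3 library A, and 0.53 without GM PFI-3 library B, when it passed the test (adjusted p = 0.000525). The 48h difference passed it in the fits of the compared libraries alone, with and without the library letter as a block (adjusted p 0.00485 and 0.0208).

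**Figure D3:**
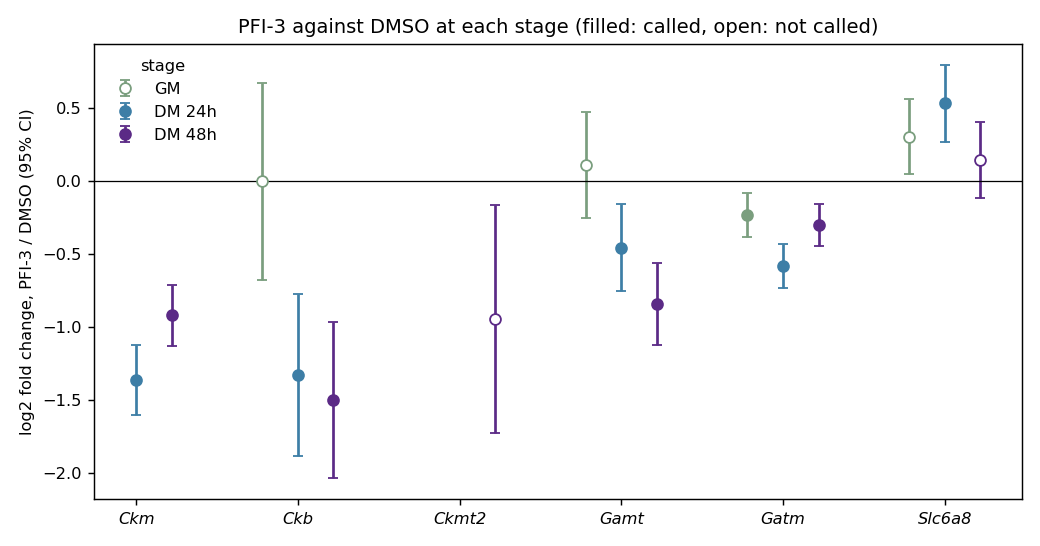
Log2 fold change of PFI-3 over DMSO with its 95% interval for the 6 tested genes at GM (green), DM 24h (blue) and DM 48h (purple), filled where called and open where not. Ckm in GM and Ckmt2 in GM and at DM 24h are left out because both groups held 5 counts or fewer. Ckm and Ckb lie between -0.92 and -1.503 at the differentiated stages, Gatm between -0.23 and -0.58 at all stages, and Slc6a8 above 0 throughout.

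The effect of PFI-3 was compared between stages by an interaction contrast, which asks whether the log2 fold change itself differs. Between 48h and GM, 2 genes were called, where 14.5% of all tested genes were. The Ckb difference was 1.503 log2 units more negative at 48h (interaction -1.503, SE 0.40, edgeR adjusted p = 0.0265), and that of Gamt was 0.95 more negative (interaction -0.95, SE 0.21, adjusted p = 0.0105). Over fits without 1 GM library the Ckb interaction ran from -2.304 without DMSO library B to -1.008 without DMSO library A. The Ckb call was lost in 9 of the 21 other settings, with adjusted p of 0.05 to 0.113, among them the fits without any 1 48h library or GM PFI-3 library B. For Gatm the interaction was -0.07 and for Slc6a8 -0.16, and neither was called (edgeR adjusted p = 0.681 and 0.57). Between 24h and GM no gene was called (3.37% of all tested genes were), although at an unadjusted p under 0.05 Ckb, Gamt and Gatm passed in edgeR, beside Ckm with its GM counts at the floor. DESeq2 called none of Ckb, Gamt, Gatm and Slc6a8 there, and limma called Gatm. The fit of the compared libraries with the library letter as a block called Ckb (edgeR adjusted p = 0.000293). Leaving out 1 GM library called Ckb (without PFI-3 library A or DMSO library B), Gamt (without DMSO library B), Gatm (without DMSO library A) and Slc6a8 (without PFI-3 library A). Between 48h and 24h none was called either (12.1% of all tested genes were), with Ckm, Gatm and Slc6a8 passing at an unadjusted p under 0.05 in edgeR. DESeq2 called Ckm there, and limma called Gatm. With only the compared libraries in the fit, the last comparison called Ckm, Gamt, Gatm and Slc6a8. With the library letter as a block there, that comparison called Ckb as well (edgeR adjusted p = 0.0274). It also called Ckm without any 1 GM library, Gamt and Gatm without either GM DMSO library, and Slc6a8 without either GM PFI-3 library. The contrasts at different stages share no libraries, but the interactions with GM share the GM libraries.

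In DMSO alone, 3 of the 6 tested genes were called higher and 1 lower at 24h than in GM, where 30.6% and 30% of all tested genes were. At 48h 5 were called higher than in GM and none lower, where 37.2% and 35.9% of all tested genes were. From 24h to 48h 6 were called higher and none lower, where 24.2% and 23.9% of all tested genes were. Ckm and Ckmt2 passed the filter through differentiated libraries alone. Their calls against GM, and that of Ckmt2 against 24h, are thus a description only. Per length, the GM DMSO order was Slc6a8 (43.9 ± 1.73 FPKM), Gatm (37.5 ± 0.74), then Gamt (15.3 ± 5.90) and Ckb (12.9 ± 8.09), whose libraries overlap (SD, n = 2). By 48h it was Ckm (636 ± 14.1), Ckb (481 ± 11.6), Gamt (131 ± 0.15), Gatm (89.2 ± 3.12) and Slc6a8 (37.0 ± 1.76), with no overlap between neighbours. The transporter and the first synthesis enzyme thus led before differentiation, and the kinases led after it.

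Lists of related genes put the group in context, and each list's counts are over its tested genes. Of all tested genes, 11.4% were called lower and 12.2% higher with PFI-3 at 24h, and 14% and 13.4% at 48h. Of 10 genes for M-band anchors and ATP users, the partners that creatine kinase serves in muscle, 5 were called lower and 1 higher with PFI-3 at 24h, and 8 lower and none higher at 48h. The list's median log2 fold change was -1.09 at 24h and -0.71 at 48h. The M-band protein genes Myom1, Myom2 and Myom3 were 3.02-, 3.43- and 2.35-fold lower at 24h and 1.55-, 1.74- and 1.41-fold lower at 48h, all called in edgeR. Atp2a3, a calcium pump, went from 7.09 ± 0.55 CPM to 1.29 ± 0.39 at 48h (SD, n = 2 each, log2 fold change -2.45, edgeR adjusted p = 0.000355). In GM it was called higher with PFI-3, at 4.44 ± 2.25 against 0.98 ± 0.28 CPM. Atp1b2, a beta subunit of the sodium pump, went from 44.7 ± 1.31 CPM to 18.6 ± 2.15 at 48h (-1.26, edgeR adjusted p = 0.000175).

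The list of other phosphotransfer enzymes, which also holds the AMP deaminase genes, did not share that direction. Of 11 tested, 3 were called higher and 1 lower with PFI-3 at 24h, and 2 higher and 3 lower at 48h, with a list median of 0.08 and -0.04. Ampd1, the muscle AMP deaminase, stood at 11.2 ± 0.57 CPM in DMSO and 2.97 ± 0.23 in PFI-3 libraries at 48h (log2 fold change -1.91, edgeR adjusted p = 0.000347). Its relative Ampd2 was higher, at 75.5 ± 2.998 against 59.8 ± 1.37 CPM (0.34, adjusted p = 0.00256). Ak4, a mitochondrial adenylate kinase, was called higher at 24h (0.92, edgeR adjusted p = 0.00233) and lower at 48h (-1.06, adjusted p = 0.000171). Nme2, a nucleoside diphosphate kinase and the list's most abundant gene, stood at 212 ± 10.7 CPM in DMSO and 206 ± 13.8 in PFI-3 libraries at 48h (SD, n = 2).

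The list for mitochondrial ATP and ADP exchange holds the pores and nucleotide carriers, with the phosphate carrier Slc25a3 and the isomerase gene Ppif. Its genes were called in 0 of 7 cases with PFI-3 at 24h and in 1 of 7 at 48h by edgeR. That 1 call was lower, as were 14% of all tested genes at 48h. At an unadjusted p under 0.05, Slc25a3 alone passed at 24h (log2 fold change 0.14). The one was Vdac1, the outer membrane pore, at 279 ± 8.85 CPM against 330 ± 11.2 with DMSO (log2 fold change -0.24, edgeR adjusted p = 0.0137). The carrier gene Slc25a5, the most abundant of them, had 371 ± 4.88 against 413 ± 13.7 CPM and was not called. In DMSO all 7 were called lower at 24h than in GM, where 30% of all tested genes were. Ckm, Ckb and Gamt were called higher at that stage.

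Of 17 tested genes for precursors, methyl donors and other creatine carriers, 2 were called higher and 1 lower with PFI-3 at 24h, and 2 higher and none lower at 48h. These counts were near or under the shares over all tested genes. Nnmt, which uses S-adenosylmethionine to methylate nicotinamide, had 3.17 ± 0.16 CPM with PFI-3 and 0.98 ± 0.35 with DMSO at 48h (log2 fold change 1.68, edgeR adjusted p = 0.00608). Shmt1, which interconverts serine and glycine, had 14.3 ± 0.80 against 10.3 ± 0.79 CPM (0.47, adjusted p = 0.0126). Mat2a, which makes S-adenosylmethionine and was the most abundant of the list, had 262 ± 5.47 against 318 ± 14.5 CPM and was not called. Of 13 tested energy sensing regulators, 3 were called lower at 24h, and 2 lower and 1 higher at 48h. Prkag3, the AMPK gamma subunit of skeletal muscle, was 3.47-fold lower at 24h and 1.49-fold lower at 48h (edgeR adjusted p = 1.84e-06 and 0.000665). Stk11, the kinase that activates AMPK, was 1.26- and 1.29-fold lower (adjusted p = 0.00212 and 0.000787). Prkaa1, an AMPK catalytic subunit, was 1.15-fold higher at 48h (adjusted p = 0.0388), and Prkag1, the list's most abundant gene, had 69.4 ± 2.26 against 65.5 ± 1.48 CPM.

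**Figure D4:**
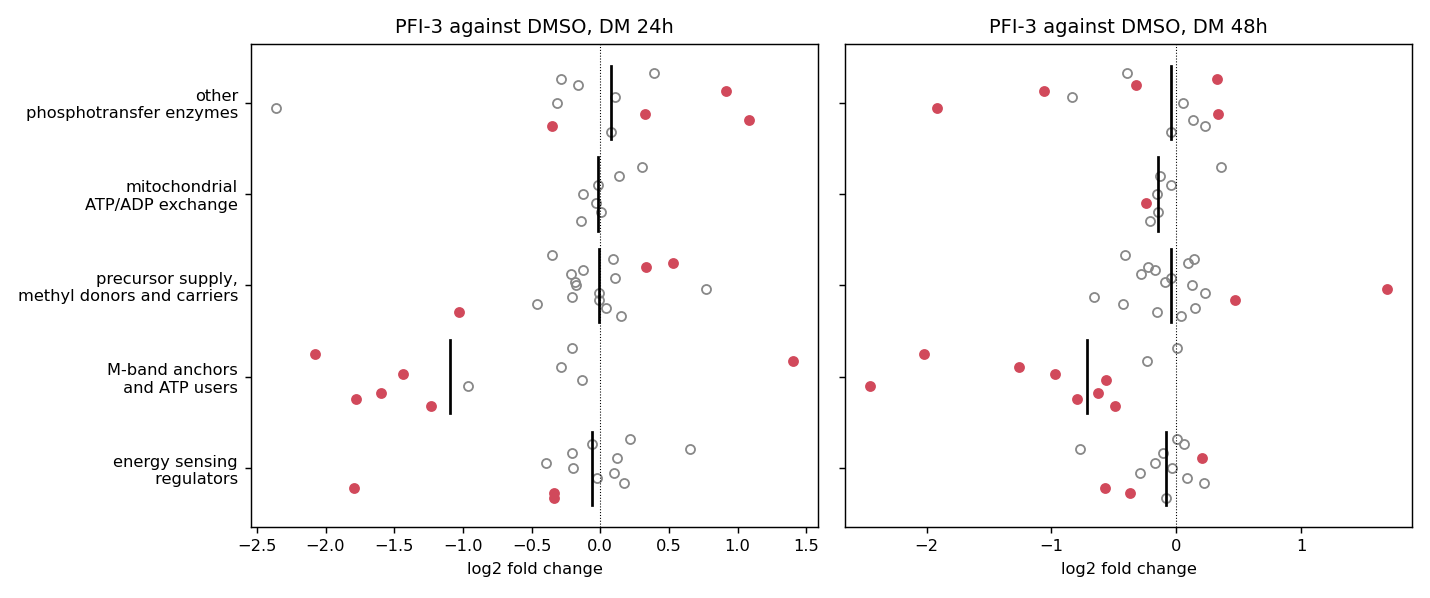
Log2 fold change of PFI-3 over DMSO at DM 24h (left) and DM 48h (right) for each tested gene of the 5 lists, red and filled where called, grey and open where not, with a black line at each list's median. The M-band anchors and ATP users sit mostly below 0, with medians of -1.09 and -0.71, and the other lists have medians between -0.15 and 0.08.

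The profiles of the genes over the 12 libraries were set beside those of 10362 other genes with at least 5 CPM on average, by Pearson's r of log2(CPM + 1). All points share the same libraries, and stage dominates them, so r is a description. The profile of Ckm was most like that of the fast-muscle genes Tnnt3 (r = 0.9994), Pygm (0.9988) and Mylpf (0.9988), which encode troponin T, muscle glycogen phosphorylase and a myosin light chain. That of Ckb was most like Cd81 (0.9919), Susd5 (0.9915) and Pkig (0.9913), and that of Ckmt2 like Sccpdh (0.9903), Padi2 (0.9898) and Pacsin3 (0.9848). Gamt was closest to Usf3 (0.9954), Phkb (0.9953), a subunit of phosphorylase kinase, and Syne1 (0.9933). Gatm was closest to N4bp3 (0.986), Nav2 (0.9805) and Jph2 (0.9803), a junctophilin of muscle membranes. Slc6a8 had the loosest match, with Hoxc13 (0.9496), Tmem151a (0.9438) and Ube3c (0.9395). Among the creatine genes themselves, Ckb and Gamt had r = 0.99, Ckm and Gamt 0.98, Ckm and Ckb 0.97 and Ckmt2 and Gatm 0.95. Ckm and Slc6a8 had r = -0.44 over the same 12 libraries.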

How the data were processed

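RNA-seq values of 12 C2C12 libraries were used as deposited, 1 table per library with an expected count and an FPKM value per gene, per the file headers. The submitters' processing notes name build mm10 and HISAT, StringTie, Cufflinks, Bowtie, RSEM and DESeq2, with no role or order given, and the library preparation and downstream analysis were done by a service provider per the labels. Of the deposited expected counts, 93.3% to 93.7% in a library were whole. They were rounded, and a gene missing from a table was taken as 0. A 6-group model over all 12 libraries was fitted in edgeR 4.0.16 (R 4.3.3) with TMM scaling, the filterByExpr filter (12545 of 16288 genes kept) and the quasi-likelihood test, with Benjamini-Hochberg adjustment over all tested genes. CPM was computed from the expected counts, and shares and ratios from the authors' FPKM values, whose totals per library were not rescaled. DESeq2 1.42.0 and limma 3.58.1 on log2(FPKM + 1) and log2(FPKM + 0.1) were alternatives, beside other scaling and filters, the library letter as a block, fits of the compared libraries alone and fits leaving out 1 library each. The tests were run on simulated data first.

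The members and lists were chosen with earlier results of these data known. All 7 creatine genes are named. Of each related list, up to 3 genes called with PFI-3 at DM 48h with the largest change at a mean of at least 1 CPM are named, with the list's gene of highest mean FPKM; some genes that this rule names are not reported here. Myom1, Myom2 and Myom3, Slc25a3 and the change of Ak4 at DM 24h were added after their values were seen. Promoter sequences were found for 6 of the 7 genes in the RefSeq table of build GRCm38.p6, matched by gene identifier, and gene positions are from the same annotation.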

Additional observations from a re-analysis of the deposited data

Results flagged for a closer look

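The PFI-3 effect on 2 creatine genes differed between DM 48h and GM by the interaction test of the 6-group edgeR model. For Ckb the log2 fold change at DM 48h minus that in GM was -1.503, with duplicates of 473 and 490 FPKM (DMSO) and 182 and 179 FPKM (PFI-3) at DM 48h. For Gamt it was -0.951, with 131 and 130 against 78.2 and 76.9 FPKM. In GM the duplicates of both genes with DMSO lay far apart, at 136 and 356 expected counts for Ckb and 141 and 248 for Gamt. Without DMSO library A the interaction was -1.008 for Ckb and -0.643 for Gamt, and without DMSO library B it was -2.304 and -1.366, each still called in edgeR (adjusted p from 1.69e-05 to 0.014). For Ckb it was -1.013 and not called without GM PFI-3 library B. The Ckb call was also lost in DESeq2 (adjusted p = 0.0818) and in limma on log2(FPKM + 1) (0.05) and log2(FPKM + 0.1) (0.0671). The Gamt call was kept in all 21 other settings.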

How the results depend on the processing

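For the creatine genes, 45 results were recomputed under 21 other settings, which gave 945 values: 854 kept direction and side of the threshold, 45 lost a call, 44 gained one and 2 turned direction. Those 2 were the Gamt difference in GM, which ran from -0.201 to 0.525 over fits leaving out 1 library, and the Slc6a8 interaction between 48h and GM, which ran from -0.39 to 0.108. The Ckb difference in GM was 0.00 in the main fit and had no direction to keep. Its other values, from -0.498 to 0.801, were counted as kept or gained whatever their sign. Counts of called genes over all tested genes moved with the libraries in the fit. With only the compared libraries they were 38 in GM (1456 with all 12), 5603 at 24h (2966) and 5644 at 48h (3438), and 92, 1033 and 4170 for the interactions of 24h with GM, 48h with GM and 48h with 24h (423, 1824 and 1517). The library letter as a replicate block in those smaller fits gave 922, 5715 and 6077, and 803 and 4344 for the first and last interaction. Leaving out 1 library gave 1020 to 2742 genes in GM, 1323 to 3948 at 24h and 1961 to 4323 at 48h, and 89 to 1002, 1018 to 2935 and 794 to 2421 for the interactions. With limma on log2(FPKM + 1) the split of higher and lower calls was 1057 and 347 in GM (685 and 771 in edgeR), 1863 and 1143 at 24h (1533 and 1433), 2554 and 1356 at 48h (1682 and 1756), and 196 and 399 for the interaction of 24h with GM (223 and 200). The Ckm share computed from CPM in place of FPKM was 27.41% and 26.84% at 24h and 55.63% and 65.18% at 48h (DMSO, PFI-3). Libraries with the same letter deviated together in GM (r = 0.509 over 10656 genes) and hardly at 24h (0.036) or 48h (0.052). With the letter as a replicate block over all 12 libraries, 1489, 3040 and 3452 genes were called with PFI-3, and of the creatine genes the block ended the Gatm call in GM (adjusted p = 0.0575). Depth limits Ckmt1, Ckmt2 before 48h and Ckm in GM, where no fold change was measurable.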
